A study of Mus musculus with 24 samples.

Results

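The 38 genes described here carry sugar, lactate and amino acids into and out of cells, break glucose down, set the flow between glycolysis and the mitochondrion, answer to low oxygen, or make and burn fatty acids, together with the transcription factor Myc. They are 38 of the 21631 protein-coding genes of mouse build GRCm38 considered, and the list groups them by function. An open-chromatin peak was counted for a gene when its summit lay inside the gene, or within 100 kb of it with that gene as the nearest protein-coding gene. By that rule 2423 of 565505 peaks belonged to them in the 18 libraries with long peak lists. A peak near a gene is not shown to act on it, and accessibility is not gene expression.

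The libraries were Omni-ATAC-seq, in which a transposase inserts adapters into open DNA of isolated nuclei, made from sorted CD8+ T cells. The mice carried Lag3-iCreERT2 and Rosa26-LSL-tdTomato, had a C57BL/6 background and bore B16-F10, a mouse melanoma line. Every group shared the same alleles, the tumor, tamoxifen (2 mg, into the peritoneum, on each of days 8 to 10) and harvest on day 19. In these mice Cre is made from the Lag3 locus and tamoxifen lets it switch on tdTomato permanently, so red cells are those, or descend from those, in which Lag3 was active in that window. Tumors gave 4 DP libraries (LAG3+ tdTomato+), 3 LAG3_SP, 3 TDT_SP and 4 DN (LAG3- tdTomato-), and the draining (DLN) and non-draining (NDLN) lymph nodes each gave 1 LAG3_SP, 2 TDT_SP and 2 DN. The labels describe LAG3_SP as LAG3- tdTomato+ and TDT_SP as tdTomato+ with no statement on LAG3, so both are given by library name and nothing is assumed from it. The labels name 1 batch for all libraries and do not say whether replicates came from separate mice, so p-values measure only the spread between these libraries.

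A T cell that is activated takes up glucose and amino acids through membrane carriers and sends much of the glucose to lactate, even with oxygen present. The hypoxia-inducible factors, whose oxygen-sensing subunits are Hif1a and Epas1 (HIF-2α), bind a short core in DNA and raise many genes of the same chain when prolyl hydroxylases of the Egln family can no longer mark them for destruction. Myc and amino acid supply drive the same programme during clonal growth, and a tumor is a setting in which glucose and oxygen can both be short.

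Values are ranks. Within a library each peak was placed by the authors' −log10 p among the strongest peaks, of which each library of a fit gave equally many, and its rank value runs from near 0 for the weakest to 1 for the strongest, with 0 for no such peak. Rank values were compared over regions of 501 bp with limma, and a region counts as called where its p, adjusted by Benjamini-Hochberg across the whole fit, was under 0.05. The tumor fit held 12 libraries (DP, LAG3_SP, TDT_SP and DN, 3 each) and 123 member regions of 27065. The tissue fit held 15 libraries without DP and 106 member regions of 22997. The long lists held 14244 to 48268 peaks, the reads behind a peak are unknown, and 6 lists of 301 to 6613 peaks were left out. All 8 CD8 T cell marker genes had regions in the tumor fit, 33 in all. The best region had 0.614 to 0.806 at Cd8a, 0.157 to 0.714 at Cd8b1, 0.497 to 0.929 at Cd3d and 0.633 to 0.886 at Cd2. Thy1 had 0.35 to 1 and Lck 0.31 to 0.687. Some libraries were at 0 at Cd3e (0 to 0.571) and Cd3g (0 to 0.685). Ms4a1, Cd79a, Cd79b, Csf1r, Lyz2, Cd14, Tyr, Dct, Sox10 and Tyrp1 had no region in this fit. Regions near some markers of other cells were present: the melanoma genes Pmel (0.959 to 1 at its best region), Mitf (0.762 to 0.974) and Mlana (0 to 0.524), the myeloid genes Cebpb (0.601 to 0.952), Itgam, Cd68 and Spi1, the B cell genes Pax5 and Ebf1, and Pecam1 and Col1a1. Pmel was as high in lymph node libraries (0.975 to 0.998). Of the tumor libraries, DN replicate 4, DP replicate 4, LAG3_SP replicate 3 and TDT_SP replicate 3, 1 per group, stood apart: their deviations from the group means correlated at 0.187 to 0.333 with each other and at −0.251 to −0.0514 with libraries of other groups outside this set. Results that change without all 4 are given beside them, an alternative chosen after seeing the data.

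The promoters of Pdk1, Pfkfb4, Ldhb and Pgk1 lay inside regions that differed between tumor and lymph node, and they are shown here because they serve the same pathway and differed in opposite directions. Each run is the 250 bases before a RefSeq start on GRCm38.p6, read 5′ to 3′ along the gene, and capitals mark the letters ACGTG or GCGTG, or their reverse complements, the core of the hypoxia response element. Pdk1 (chr2:71872974-71873223, plus strand) and Pfkfb4 (chr9:108991652-108991901, plus strand) ranked higher in tumor, and Ldhb (chr6:142507958-142508207, minus strand) and Pgk1 (chrX:106186850-106187099, plus strand) ranked lower.
Pdk1: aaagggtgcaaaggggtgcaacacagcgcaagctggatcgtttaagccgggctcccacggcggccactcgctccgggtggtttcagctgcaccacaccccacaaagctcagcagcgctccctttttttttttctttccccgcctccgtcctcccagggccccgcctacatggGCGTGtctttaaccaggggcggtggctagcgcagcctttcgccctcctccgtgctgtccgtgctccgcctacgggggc
Pfkfb4: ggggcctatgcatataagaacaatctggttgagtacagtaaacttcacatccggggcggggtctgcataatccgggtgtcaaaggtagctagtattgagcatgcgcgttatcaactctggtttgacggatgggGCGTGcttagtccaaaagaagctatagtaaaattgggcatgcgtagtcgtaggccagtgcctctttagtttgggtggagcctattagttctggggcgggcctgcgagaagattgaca
Ldhb: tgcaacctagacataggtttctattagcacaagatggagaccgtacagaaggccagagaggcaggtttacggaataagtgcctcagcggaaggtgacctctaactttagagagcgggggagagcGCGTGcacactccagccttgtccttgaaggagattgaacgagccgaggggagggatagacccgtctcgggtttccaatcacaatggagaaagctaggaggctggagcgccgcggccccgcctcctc
Pgk1: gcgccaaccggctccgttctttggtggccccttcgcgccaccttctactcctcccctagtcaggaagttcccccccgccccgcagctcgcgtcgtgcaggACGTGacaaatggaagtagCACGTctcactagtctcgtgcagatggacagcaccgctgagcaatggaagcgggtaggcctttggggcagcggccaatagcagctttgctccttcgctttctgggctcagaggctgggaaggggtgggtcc
The core began 78 bases before the start in Pdk1, 117 in Pfkfb4 and 126 in Ldhb, and Pgk1 held a pair of cores, at 150 and 131 bases. Each of these promoters, picked because it was called, held a core, whichever way it ranked. Most member windows hold one (76.1%), and a link between the core and the direction was not tested.

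RefSeq promoter windows were at hand for 32 of the 38 genes, 46 windows in all, and none was at hand for Slc2a3, Slc1a5, Slc7a5, Slc38a1, Epas1 and Myc. At least 1 hypoxia core, on either strand, stood in 35 of the 46 windows (76.1%), from 27 of the 32 genes, against 38.6% of all 32851 mouse promoter windows of the same length. ACGTG alone was in 50% of member windows, against 16.6% of all windows, and GCGTG in 50% against 28.2%. The E-box CACGTG, which contains ACGTG and is the kind of site Myc binds, was in 13% against 6.02%, and the AP-1 letters TGANTCA were in 2.17% against 6.75%. Median GC content was 62.2% in the member windows and 52.4% in all windows. A run of these letters is not shown to be bound.

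The members were broadly open in every long list. A list held 80 to 199 member peaks (median 138), which was 0.394% to 0.562% of its peaks, and these peaks came from 32 to 37 of the 38 genes. Only Pfkl, the liver-type phosphofructokinase, had no peak in any of the 18 long lists. The amino acid carrier gene Slc38a1 (6 to 11 peaks, median 8) and the glucose carrier gene Slc2a3 (5 to 11, median 8) had many peaks. Aldoa, the muscle-type aldolase, had exactly 1 peak in every list, and Vegfa, the angiogenic growth factor, had 0 to 3 and was without one in 2 of the 18.

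The set as a whole sat at a similar height in the sorted groups. The median rank value of member peaks, over all peaks of a list, was 0.539, 0.575 and 0.577 in the tumor DP libraries, 0.512, 0.531 and 0.558 in LAG3_SP, 0.547, 0.563 and 0.574 in TDT_SP, and 0.473, 0.475 and 0.581 in DN. The groups overlapped, since 1 DN library was the highest of the 12 and the other DN libraries were the lowest. In the lymph nodes the same median ran from 0.467 to 0.601. Peaks with summits in a listed promoter window of any gene made up 16.2% to 32.5% of member peaks, against 15.6% to 33.5% of all peaks.

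The strongest region of each gene, taken as the one with the highest mean rank value over the 12 tumor libraries, gives the level of the chain step by step. It lay in a listed promoter window of its own gene for 22 of 37 genes, had a peak in every tumor library for 29, and passed 0.5 in its median for 30. Slc2a3, the high-affinity glucose carrier GLUT3, had the strongest of them, 8.7 kb above its highest coordinate at chr6:122810813-122811313, with rank values of 0.993 to 0.999. Slc2a1, the broadly expressed glucose carrier GLUT1, was lower at 0.586 to 0.955 (median 0.847), and the lactate carriers Slc16a1 (0.00958 to 0.767, median 0.556) and Slc16a3 (0 to 0.594, median 0.339) were lower still in their medians.

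**Figure D1:**
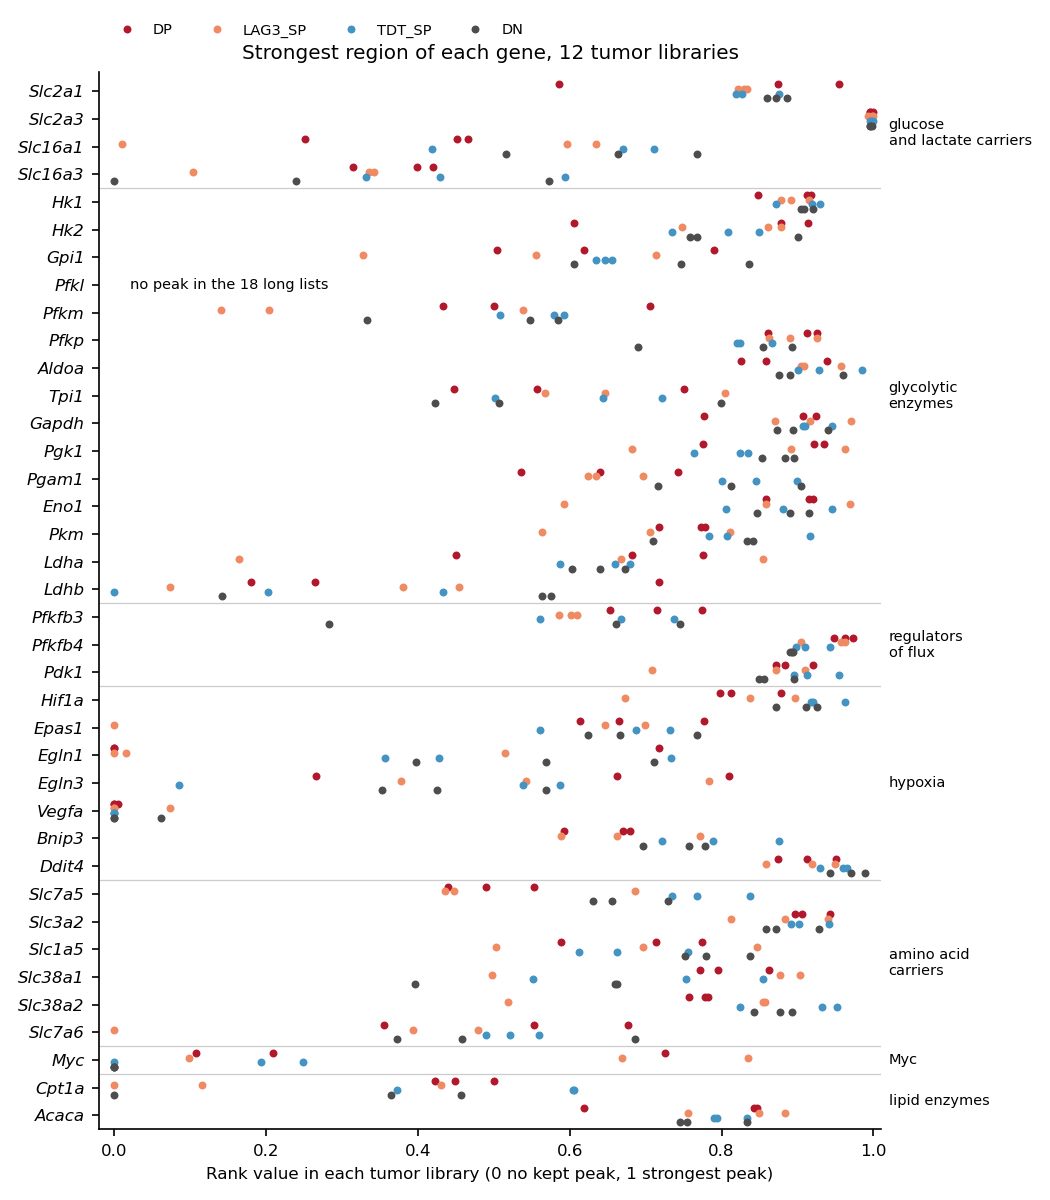
Rank value (0 to 1, horizontal) of the strongest region of each gene in the tumor libraries, genes grouped by role down the page, 1 dot per library colored by DP, LAG3_SP, TDT_SP and DN. The dots of Slc2a3 lie together near 1, those of Ldhb and Myc spread from 0 to above 0.7, those of Vegfa lie at or near 0, and Pfkl has no peak.

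Among the glycolytic enzymes the hexokinase gene Hk1 (median 0.91), Gapdh, which makes the first high-energy product of the lower chain (0.909), Aldoa, which splits the 6-carbon sugar (0.906), and the enolase gene Eno1 (0.886) stood high in the tumor libraries. Pgk1, whose enzyme makes the first ATP of the lower chain, had a median of 0.868, Hk2, the inducible hexokinase, 0.829, the platelet-type phosphofructokinase Pfkp 0.865, and the pyruvate kinase gene Pkm 0.781. Lower medians were found for Pgam1, the phosphoglycerate mutase (0.729), Gpi1, the isomerase of the second step (0.641), Tpi1, the triose isomerase (0.605), and the muscle-type phosphofructokinase Pfkm (0.523). The lactate dehydrogenase genes differed in these medians, with 0.663 for Ldha and 0.322 for Ldhb.

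The regulators of flux and the hypoxia genes spanned the range. Pfkfb4 (0.926) and Pfkfb3 (0.657) set the level of fructose 2,6-bisphosphate, the activator of phosphofructokinase, and Pdk1 (0.889) closes the mitochondrial entry of pyruvate. Ddit4, a hypoxia- and stress-induced brake on mTORC1, had a median of 0.946, Hif1a had 0.887, the mitophagy receptor gene Bnip3 had 0.709, and Epas1 had 0.666. The prolyl hydroxylase genes Egln3 (0.54) and Egln1 (0.413) were lower and Vegfa was at 0.

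The amino acid carriers were led by Slc3a2, the heavy chain CD98 that brings large neutral amino acid carriers to the membrane (0.9), and Slc38a2 (0.848), a sodium-coupled carrier of glutamine and other small amino acids. Slc38a1 of the same family had 0.762, the glutamine exchanger gene Slc1a5 0.733, Slc7a5, the light chain LAT1 of CD98, 0.643, and its relative Slc7a6 0.484. Acaca, the first enzyme of fatty acid synthesis, had 0.814 and Cpt1a, the mitochondrial gate of fatty acid burning, 0.427, while Myc had 0.151 at a region 53.5 kb from the gene. None of these 37 regions was called in any of the 6 tumor comparisons with all 12 libraries. Over all regions 3.99% were called for DP minus DN (1.03% in promoter windows) and 5.61% for LAG3_SP minus DN (2.12%). The share was at most 0.942% in the other tumor comparisons. A region with rank values near 1, as at Slc2a3, has little room to rank higher.

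Within the tumor, DP cells differed from DN cells at 5 of the 123 member regions, all of them higher in DP. That is 4.07% of member regions, against 3.99% of all regions called in this comparison, of which 2.62% were higher and 1.37% lower. LAG3_SP cells likewise ranked higher than DN cells at 5 member regions and lower at 0, or 4.07% against 5.61% of all regions (3.61% higher, 2.01% lower). Both comparisons share the DN libraries. The called regions belonged to Epas1 (3 regions), Slc7a5 and Slc38a1, and the same 5 regions were called in both. At an unadjusted limma p under 0.05 stood 19 of the 123 member regions for DP, against 4985 of all 27065 regions. For LAG3_SP the counts were 23 and 6170. The median difference over all 123 member regions was −0.00109 for DP minus DN, against −0.00507 over all regions, and −0.0374 for LAG3_SP minus DN, against −0.0165. Over all regions the calls depended on single libraries. They numbered 1079 for DP minus DN, 505 without DP replicate 1 and 535 without DP replicate 2, and 1519 for LAG3_SP minus DN, 834 without LAG3_SP replicate 1, 937 without DN replicate 1 and 2510 without LAG3_SP replicate 3.

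Without the 4 libraries that stood apart the 5 regions stayed called, and others joined them in both directions. DP minus DN then had 5 higher and 6 lower member calls, among 1129 higher and 872 lower over all regions, and LAG3_SP minus DN had 9 higher and 5 lower, among 1571 and 1097. The lower calls shared by both comparisons were at the strongest regions of the prolyl hydroxylase gene Egln1 (−0.483 for DP, limma adjusted p = 0.0275) and of Pgam1 (−0.27, adjusted p = 0.0365), and at regions away from Ldhb, Pdk1 and Slc38a2. Each of these had a negative difference that missed the threshold with all 12 libraries, as at Egln1 with −0.32 (adjusted p = 0.451). The added higher calls, for LAG3_SP, were near Hif1a, Ddit4, Slc38a1 and at the Pfkfb4 promoter.

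Epas1 had 7 regions in the tumor fit, and the 3 that were called lay outside the gene on both sides. The first, at chr17:86709756-86710256, is 43.9 kb below the lowest coordinate of the gene. Its rank values were 0.807, 0.865 and 0.893 in DP, 0.906, 0.926 and 0.743 in LAG3_SP, 0.582, 0.5 and 0.754 in TDT_SP, and 0.285, 0 and 0 in DN. Every DP, LAG3_SP and TDT_SP library lay above every DN library. The difference was 0.76 for DP minus DN (SE 0.0972, limma Benjamini-Hochberg adjusted p = 0.00139) and 0.763 for LAG3_SP minus DN (adjusted p = 0.00119).

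The other called Epas1 regions lay above the highest coordinate of the gene. At chr17:86850621-86851121, 17.5 kb away, rank values were 0.602, 0.514 and 0.719 in DP, 0.713, 0.762 and 0.693 in LAG3_SP, 0.111, 0.248 and 0.154 in TDT_SP, and 0 in the 3 DN libraries. DP and LAG3_SP overlapped each other and lay above all TDT_SP libraries, which in turn lay above DN. The difference was 0.611 for DP minus DN (SE 0.103, limma adjusted p = 0.00611) and 0.723 for LAG3_SP minus DN (adjusted p = 0.0022). At chr17:86852591-86853091, 19.4 kb away, values were 0.784, 0.818 and 0.888 in DP, 0.753, 0.79 and 0.74 in LAG3_SP, 0.592, 0.577 and 0.551 in TDT_SP, and 0.314, 0.306 and 0 in DN. DP and LAG3_SP again lay above TDT_SP, and TDT_SP above DN, without overlap. The difference was 0.623 for DP minus DN (SE 0.0875, limma adjusted p = 0.00217) and 0.554 for LAG3_SP minus DN (adjusted p = 0.00363).

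**Figure D2:**
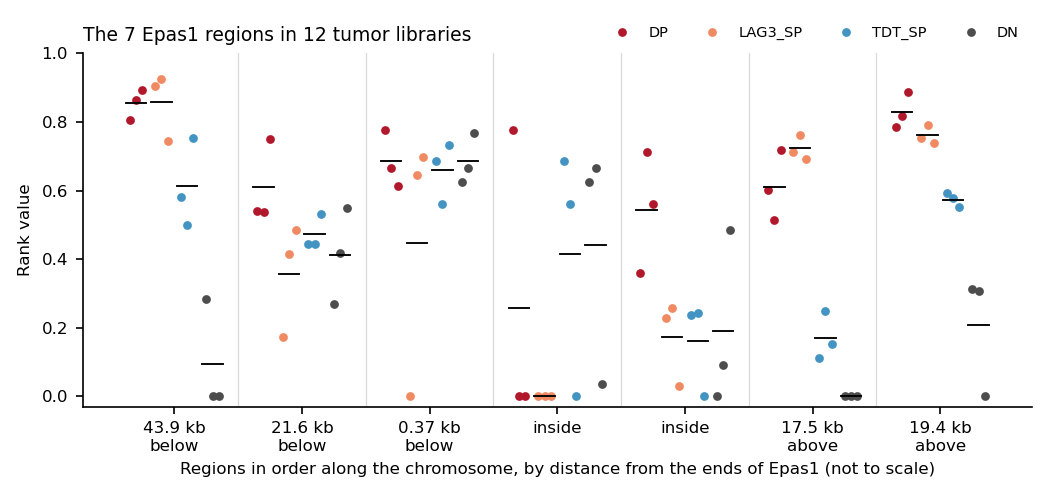
Rank value (0 to 1, vertical) at the 7 Epas1 regions of the tumor fit in their order along chromosome 17, spaced evenly and not to scale, with 1 dot per library and a bar at the mean of DP, LAG3_SP, TDT_SP and DN. DP and LAG3_SP stand far above DN at the regions 43.9 kb below and 17.5 and 19.4 kb above the gene, and the groups overlap at the region 0.37 kb below it.

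The other 4 Epas1 regions were not called. The strongest one, 0.37 kb below the lowest coordinate, averaged 0.685 in DP, 0.449 in LAG3_SP, where 1 library had no peak, 0.66 in TDT_SP and 0.686 in DN. A region 21.6 kb below the gene averaged 0.61 in DP, 0.358 in LAG3_SP, 0.473 in TDT_SP and 0.412 in DN. An internal region at chr17:86779149-86779649 averaged 0.544 in DP, 0.173 in LAG3_SP, 0.16 in TDT_SP and 0.192 in DN, and its DP minus DN difference of 0.353 missed the threshold (limma adjusted p = 0.22). The seventh, also internal, shares wide peaks with the region next to it in several libraries and averaged 0.259 in DP, 0 in LAG3_SP, 0.416 in TDT_SP and 0.442 in DN.

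Slc7a5 and Slc38a1, both carriers of amino acids, supplied the other called regions. Inside Slc7a5, at chr8:121898471-121898971, rank values were 0.717, 0.775 and 0.721 in DP, 0.778, 0.803 and 0.861 in LAG3_SP, 0.599, 0.316 and 0.512 in TDT_SP, and 0.0743, 0.15 and 0.203 in DN. All 4 groups had a peak in every library, DP and LAG3_SP lay above TDT_SP, and TDT_SP lay above DN. The difference was 0.595 for DP minus DN (SE 0.0899, limma adjusted p = 0.00328) and 0.672 for LAG3_SP minus DN (adjusted p = 0.00146). The authors' fold of the same peaks over local background was 15.7, 11.6 and 9.51 in DP, 10.3, 18.4 and 11.6 in LAG3_SP, 13.1, 9.09 and 7.27 in TDT_SP, and 6.67, 7.85 and 4.75 in DN, so on that scale too DN was below DP, although TDT_SP now overlapped DN.

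At Slc38a1 the called region, chr15:96520315-96520815, is 50.9 kb below the lowest coordinate of the gene. Rank values were 0.758, 0.592 and 0.348 in DP, 0.819, 0.761 and 0.795 in LAG3_SP, 0.456, 0.344 and 0.334 in TDT_SP, and 0 in the 3 DN libraries. DP overlapped TDT_SP, and no DN library had a peak among its strongest 19000. The difference was 0.566 for DP minus DN (SE 0.113, limma adjusted p = 0.0153) and 0.792 for LAG3_SP minus DN (adjusted p = 0.00228). The DP call rests on single libraries, with a difference of 0.47 (adjusted p = 0.0755) without DP replicate 1 and 0.553 (adjusted p = 0.0561) without DP replicate 2. The other calls of DP and LAG3_SP against DN held without any 1 of the 12 libraries.

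**Figure D3:**
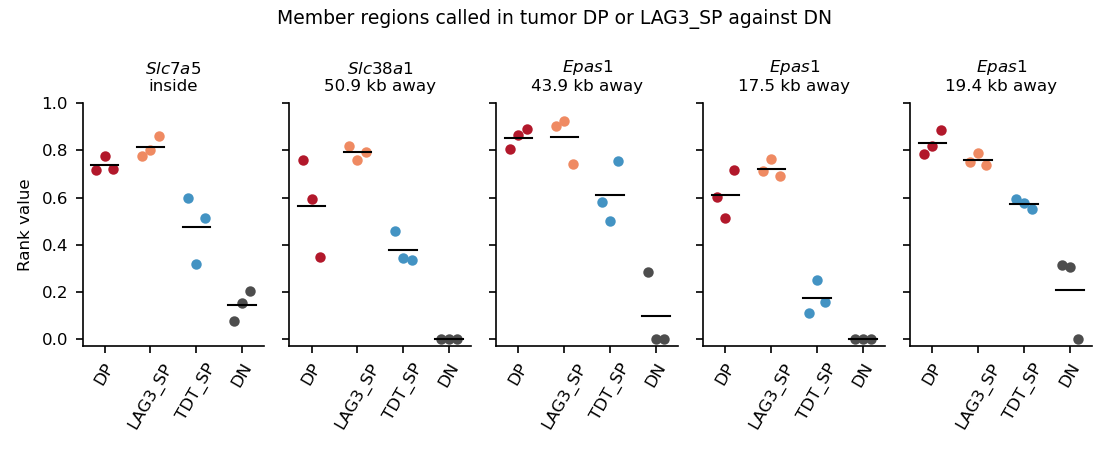
Rank value (0 to 1, vertical) at the 5 member regions called in the tumor, with 1 dot per library and a bar at the group mean, in the order DP, LAG3_SP, TDT_SP and DN. DN lies at 0.314 or lower in every panel, and TDT_SP lies between DN and the other groups in its mean.

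These calls were made with the spread shared over 4 groups and with the strongest peaks only. With only the 2 groups compared in a fit, the adjusted p of the 5 regions was 0.0592 to 0.108 for DP minus DN and 0.0739 to 0.0834 for LAG3_SP minus DN, and with all peaks of each list none was called, at differences of 0.393 to 0.611 and 0.396 to 0.681. Myeloid marker genes were lowest in DN in their sum, though not gene by gene. Regions existed for 4 of 7 of them, with none for the defining Csf1r, Lyz2 and Cd14, and 7 of the 12 regions were near Cebpb. Their summed rank value was 4.34 to 4.51 in DP, 3.39 to 4.6 in LAG3_SP, 3.65 to 4.52 in TDT_SP and 2.06 to 3.14 in DN. Spi1 did not follow, at 0 to 0.204 in DP, 0 to 0.0833 in LAG3_SP, 0.139 to 0.271 in TDT_SP and 0 to 0.189 in DN at its best region. B cell markers had regions for 2 of 6 genes, with sums of 0.293 to 0.714 in DP, 0.295 to 0.897 in LAG3_SP, 0 to 0.458 in TDT_SP and 0 to 0.128 in DN. Their part in the result was not tested. Melanoma and endothelial or stromal markers overlapped between all 4 groups.

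TDT_SP cells were compared with the other groups too. Against DN, 1 member region was called higher and 0 lower (0.813%, against 0.569% of all regions, 0.211% higher and 0.358% lower). It was the Epas1 region 43.9 kb below the gene, at a difference of 0.517 (SE 0.0972, limma adjusted p = 0.0333), and with 1 library left out at a time that call held without DN replicate 1, DN replicate 4 or LAG3_SP replicate 3, and was lost without any of the other 9, where the adjusted p ran up to 0.145. It was lost also without the 4 libraries that stood apart (0.399, adjusted p = 0.168) and with replicate number as a block (0.496, adjusted p = 0.179). In that block the fitted TDT_SP and DN libraries share only numbers 1 and 2. LAG3_SP ranked higher than TDT_SP at 1 member region and lower at 0 (0.813%, against 0.942% of all regions, 0.706% higher and 0.236% lower). This was the Epas1 region 17.5 kb above the gene, at a difference of 0.552 (limma adjusted p = 0.0361), which held without any of the 3 DP libraries, DN replicate 4 or LAG3_SP replicate 3 and was lost without any of the other 7, with an adjusted p of up to 0.123. With replicate number as a block it was lost too (0.552, adjusted p = 0.0599).

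No member region was called between LAG3_SP and DP, where limma called 0% of all regions, or between TDT_SP and DP, where it called 0.0333% (0.0185% higher, 0.0148% lower). At an unadjusted limma p under 0.05 there were 8 of 123 member regions for LAG3_SP minus DP, against 1571 of all 27065. For TDT_SP minus DP the counts were 19 and 3158. The lowest adjusted p for TDT_SP minus DP fell on the Epas1 region 17.5 kb above the gene, at a difference of −0.441 (limma adjusted p = 0.14). At the Slc7a5 region TDT_SP minus DP was −0.262 (adjusted p = 0.291) and LAG3_SP minus DP was 0.0767 (adjusted p = 0.966). A p that misses the threshold does not show that the groups were alike.

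By role, the calls against DN fell on 3 of 23 regions of the hypoxia genes, all of Epas1, and on 2 of 25 regions of the amino acid carriers, in both DP and LAG3_SP. The 36 regions of glycolytic enzymes, the 18 of glucose and lactate carriers, the 13 of flux regulators, the 5 of Myc and the 3 of lipid enzymes held 0 calls in those comparisons. Over all regions 3.99% were called for DP minus DN and 5.61% for LAG3_SP minus DN. Whether the roles differ from that share or from each other was not tested. Near Myc the region 53.5 kb away had rank values of 0.209, 0.725 and 0.108 in DP, 0.835, 0.669 and 0.0984 in LAG3_SP, 0, 0.193 and 0.248 in TDT_SP and 0 in the 3 DN libraries. The libraries of DP and LAG3_SP differed widely among themselves there, and the difference of 0.534 for LAG3_SP minus DN missed the threshold (limma adjusted p = 0.123), as did 0.347 for DP minus DN (adjusted p = 0.361). In the other direction, a Slc2a1 region at chr4:119108935-119109435 missed it at −0.528 for LAG3_SP minus DN (adjusted p = 0.0694).

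With all 12 libraries, no call in the tumor fell in a listed promoter. Of the 33 member regions with a summit in a listed promoter window of any gene, 0 were called in any tumor comparison, against 5 of 90 elsewhere (5.56%) for DP minus DN. Epas1, Slc7a5 and Slc38a1 have no listed window of their own, so the count leaves their promoters out. All regions of the fit were split the same way, with 1.03% called in promoter windows and 5% elsewhere for DP minus DN, and 2.12% and 6.81% for LAG3_SP minus DN.

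Between tumor and lymph node the members differed at more regions. With sorted subset as a covariate, 9 member regions ranked higher in tumor and 9 lower, 17% of 106, against 22.2% of all regions (10.4% higher, 11.7% lower). The median difference was 0.00381 over member regions and 0.00875 over all. The groups were 9 tumor libraries (LAG3_SP, TDT_SP and DN) and 6 lymph node libraries, 3 from each site, and a site had 1 library per subset. Tumors alone were digested with collagenase and dispase, which cannot be told apart from tissue. Myeloid marker sums (2 of 7 genes with regions, and 7 of the 9 regions near Cebpb) were 1.17 to 3.28 in tumor and 0.304 to 1.48 in lymph node. Their part in the result was not tested.

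Of the 31 glycolytic enzyme regions, 5 ranked lower in tumor and 1 higher, where 11.7% of all regions ranked lower and 10.4% higher. Their median difference was −0.0278. Promoter regions of Aldoa (0.219, limma adjusted p = 0.0531), Pgam1 (0.203, adjusted p = 0.0574) and Tpi1 (0.239, adjusted p = 0.0743) missed the threshold on the higher side. An internal Hk1 region (−0.0577, adjusted p = 0.0549) missed it on the lower side. Ldhb, the lactate dehydrogenase subunit found in tissues that burn lactate, had its promoter region at chr6:142507780-142508280 at 0 to 0.423 in tumor (median 0.159) and 0.165 to 0.831 in lymph node (median 0.792). The groups overlapped in part, and the difference was −0.488 (SE 0.106, limma adjusted p = 0.00523). Pfkp had the lowest adjusted p of the members: its internal region at chr13:6646986-6647486 had 0.601 to 0.823 in tumor (median 0.733) and 0.913 to 0.958 in lymph node (median 0.936). The groups did not overlap, and the difference was −0.197 (SE 0.0285, adjusted p = 0.000659).

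Ldha, the subunit that favours lactate formation, was lower in tumor at a pair of regions off the gene. Its promoter region was not called (0.0622, limma adjusted p = 0.704). At chr7:46833171-46833671, 8.85 kb away, tumor libraries had 0 to 0.092 (median 0) and lymph node libraries 0 to 0.479 (median 0.307), a difference of −0.244 (limma adjusted p = 0.0132). At chr7:46838745-46839245, 3.28 kb away, the difference was −0.195 (adjusted p = 0.041). The Pgk1 promoter region at chrX:106186726-106187226 had 0.569 to 0.95 in tumor (median 0.801) and 0.83 to 0.983 in lymph node (median 0.938), and the difference was −0.144 (adjusted p = 0.0306). These tumor and lymph node values overlapped. The enzyme region that ranked higher in tumor lay inside Pfkm, and inside its neighbour Senp1, at chr15:98093191-98093691, with 0 to 0.447 in tumor (median 0.372) and 0 to 0.0498 in lymph node (median 0), a difference of 0.269 (adjusted p = 0.024).

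Of the 10 flux regulator regions 2 ranked higher in tumor, both at promoters, and 1 lower, where 10.4% and 11.7% of all regions did. The Pfkfb4 promoter region at chr9:108991535-108992035 had 0.851 to 0.948 in tumor (median 0.872) and 0.283 to 0.822 in lymph node (median 0.699). No lymph node library reached the lowest tumor library, and the difference was 0.266 (SE 0.0511, limma adjusted p = 0.00277). The Pdk1 promoter region at chr2:71872919-71873419 had 0.604 to 0.938 in tumor (median 0.857) and 0.537 to 0.834 in lymph node (median 0.64), a difference of 0.174 (SE 0.0527, adjusted p = 0.0279). A second Pdk1 region, 6.44 kb from the gene at chr2:71866524-71867024, was lower in tumor, with 0 to 0.0397 in tumor (median 0) and 0 to 0.546 in lymph node (median 0.301), a difference of −0.258 (adjusted p = 0.0181).

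**Figure D4:**
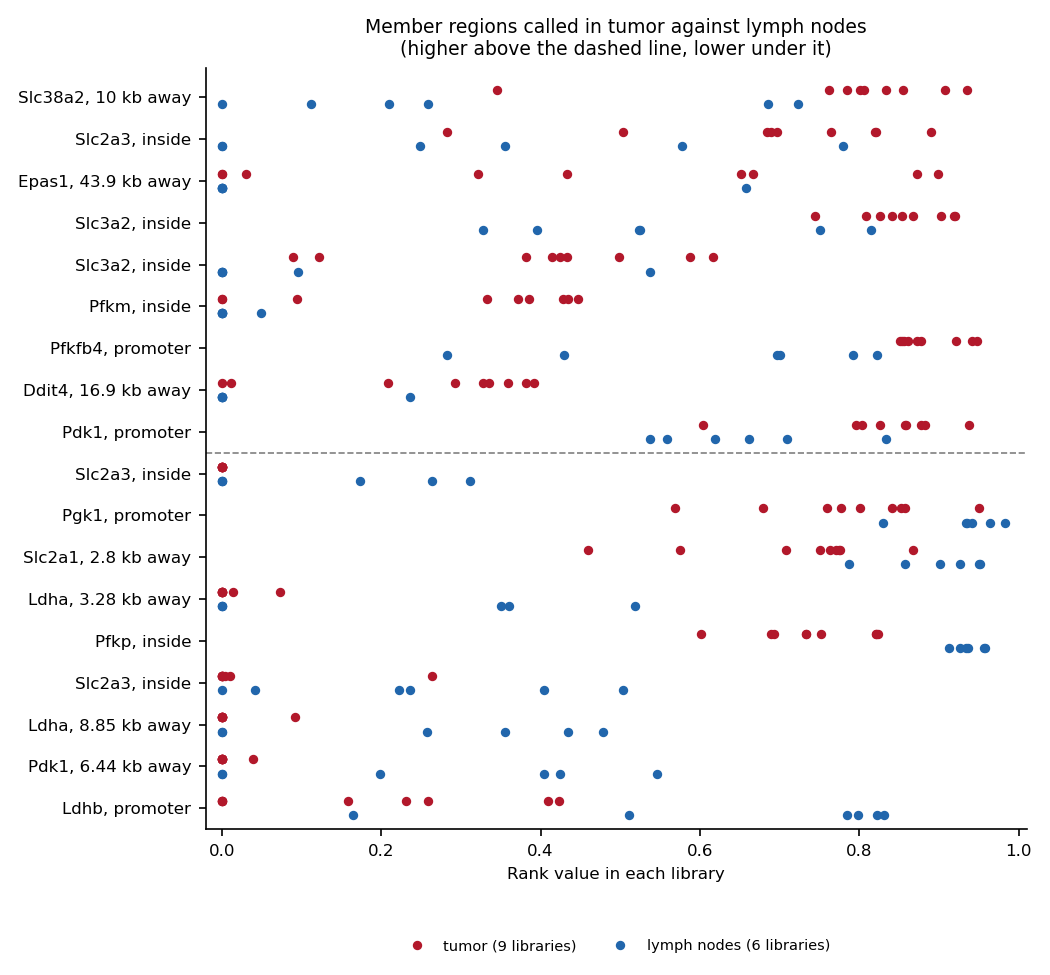
Rank value (0 to 1, horizontal) at the 18 member regions called between tumor and lymph node, with 9 tumor libraries drawn above 6 lymph node libraries for each region, and regions higher in tumor above the dashed line. The tumor and lymph node dots do not overlap at Pfkfb4 and at Pfkp.

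All 3 amino acid carrier regions called of 20 ranked higher in tumor, where 10.4% of all regions ranked higher and 11.7% lower. Slc38a2, 10.0 kb from the gene at chr15:96709489-96709989, had 0.345 to 0.935 in tumor (median 0.806) and 0 to 0.723 in lymph node (median 0.235), a difference of 0.449 (SE 0.112, limma adjusted p = 0.0107). Slc3a2 had an internal region at chr19:8723040-8723540 with 0.745 to 0.92 in tumor (median 0.854) and 0.328 to 0.815 in lymph node (median 0.525), a difference of 0.297 (SE 0.056, adjusted p = 0.00253). Its other internal region, at chr19:8712729-8713229, differed by 0.291 (adjusted p = 0.0479). Both genes thus overlapped between tissues, with medians far apart.

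The glucose carriers were mixed. Slc2a3 ranked higher in tumor at 1 internal region, chr6:122758682-122759182, with 0.283 to 0.89 in tumor (median 0.697) and 0 to 0.779 in lymph node (median 0.302), a difference of 0.357 (limma adjusted p = 0.0169). It ranked lower at other internal regions, by −0.204 at chr6:122801712-122802212 (adjusted p = 0.0337) and −0.125 at chr6:122786216-122786716 (adjusted p = 0.0468), the last with no tumor library above 0. Slc2a1 ranked lower in tumor 2.8 kb from the gene at chr4:119105691-119106191, with 0.459 to 0.868 in tumor (median 0.763) and 0.787 to 0.952 in lymph node (median 0.914), a difference of −0.179 (adjusted p = 0.0132). Carriers of sugar and lactate thus held 1 higher and 3 lower calls among 19 regions, where 10.4% of all regions ranked higher and 11.7% lower.

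Hypoxia genes held 2 higher and 0 lower calls among 18 regions, where 10.4% of all regions ranked higher and 11.7% lower. Ddit4 differed by 0.217 at chr10:59932505-59933005, 16.9 kb from the gene (limma adjusted p = 0.0411), with 0 to 0.392 in tumor and 0 to 0.236 in lymph node. The Epas1 region 43.9 kb below the gene differed by 0.321 (adjusted p = 0.0476). In this shorter ranking its tumor values were 0.873, 0.899 and 0.651 in LAG3_SP, 0.433, 0.322 and 0.667 in TDT_SP and 0.0298, 0 and 0 in DN, so tumor DN libraries lay at or near the lymph node median of 0 and the others above it, although 1 lymph node library reached 0.658. Myc (5 regions) and the lipid enzymes (3 regions) held 0 calls.

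Of these 18 tissue calls, 9 held without any 1 of the 15 libraries: Pfkp, Ldhb, Pfkfb4, Slc38a2, Slc2a1, the Slc2a3 region that ranked higher, and the first named regions of Ldha, Slc3a2 and, off its promoter, Pdk1. The other 9 lost significance without at least 1 library, and their adjusted p then ran up to 0.0633 for Pfkm, 0.0726 for Pgk1, 0.0754 for the Pdk1 promoter, 0.0797 and 0.112 for Slc2a3, 0.0824 for Ddit4, 0.0974 for Slc3a2, 0.0996 for Epas1 and 0.101 for Ldha. The Pfkm call was lost without any of the 4 DN and TDT_SP lymph node libraries, and the Epas1 call held only without the NDLN LAG3_SP library. Of the first 9, Slc2a1 was lost against the draining node alone (−0.14, limma adjusted p = 0.171). Ldhb (−0.429, adjusted p = 0.0785), Slc38a2 (0.384, adjusted p = 0.0879) and the higher Slc2a3 region (0.231, adjusted p = 0.202) were lost against the non-draining node alone. Ranking by fold lost Pfkp (−0.21) and Pdk1 off its promoter (−0.272). With all peaks of each list Pfkp, Pfkfb4, Slc38a2, the first Slc3a2 region and Epas1 stayed called among the 18, and Ldhb (−0.245, limma adjusted p = 0.245), Slc2a1 (−0.0858, adjusted p = 0.0918), the higher Slc2a3 region (0.181, adjusted p = 0.111), Ldha (−0.365, adjusted p = 0.0984) and Pdk1 off its promoter (−0.25, adjusted p = 0.319) did not. Without DN replicate 4, LAG3_SP replicate 3 and TDT_SP replicate 3 of the tumor, 11 member regions were called. Calls over all regions then numbered 3203, against 5095 with all libraries. Slc38a2 (0.407, limma adjusted p = 0.0778), the first Ldha region (−0.255, adjusted p = 0.0541) and Pdk1 off its promoter (−0.255, adjusted p = 0.0815) were no longer among the 11. The Pdk1 promoter (0.164), Epas1 (0.316), Ddit4 (0.187), the second Ldha region (−0.19) and a lower Slc2a3 region (−0.125) were lost as well. Promoter windows of any gene held 4 higher and 2 lower calls among 32 regions (18.8%), and regions elsewhere 5 higher and 7 lower among 74 (16.2%), against 23.6% and 21.6% of all regions.

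Between the draining and the non-draining node 1 member region was called, higher in the draining node (0.943% of 106, against 0.0304% of all regions, 0.0174% higher and 0.013% lower). It lay 22.3 kb from Slc16a1, the lactate carrier MCT1, at chr3:104616090-104616590. Rank values in the draining node were 0.43 in LAG3_SP, 0.511 in TDT_SP and 0.316 in DN, and in the non-draining node they were 0 in LAG3_SP, 0 in TDT_SP and 0.0005 in DN. The sites did not overlap, and all 9 tumor libraries were at 0. The difference was 0.419 (SE 0.0543, limma adjusted p = 0.0116), with 1 library per subset and site. The spread comes mostly from the tumor libraries, which had none here, so this p does not measure variation between lymph node libraries. With all peaks of each list it was 0.379 and not called, and with replicate number as a block it was 0.419 and not called (adjusted p = 0.128).

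The members were then set beside 76 other genes of the same pathways, which had 136 regions in the tumor fit and 107 in the tissue fit. For DP minus DN these held 0 higher and 1 lower call (0.735%), and for LAG3_SP minus DN 0 higher and 4 lower (2.94%). The member genes held 5 higher and 0 lower in each (4.07%), 3 of them at Epas1. Of all regions 3.99% and 5.61% were called. Promoter windows, where calls were rarer over all regions, held 49 of the 136 regions and 33 of the 123 member regions. The lower calls for LAG3_SP were at Egln2, a prolyl hydroxylase (−0.495, limma adjusted p = 0.0149), Slc6a6, the taurine carrier (−0.243, adjusted p = 0.0187), and, among enzymes of fatty acid burning, Acadm (−0.648, adjusted p = 0.0354) and Cpt2 (−0.183, adjusted p = 0.041). Egln2 had 0 in every LAG3_SP library and 0.41 to 0.625 in DN. Whether the 2 lists differ was not tested.

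**Figure D5:**
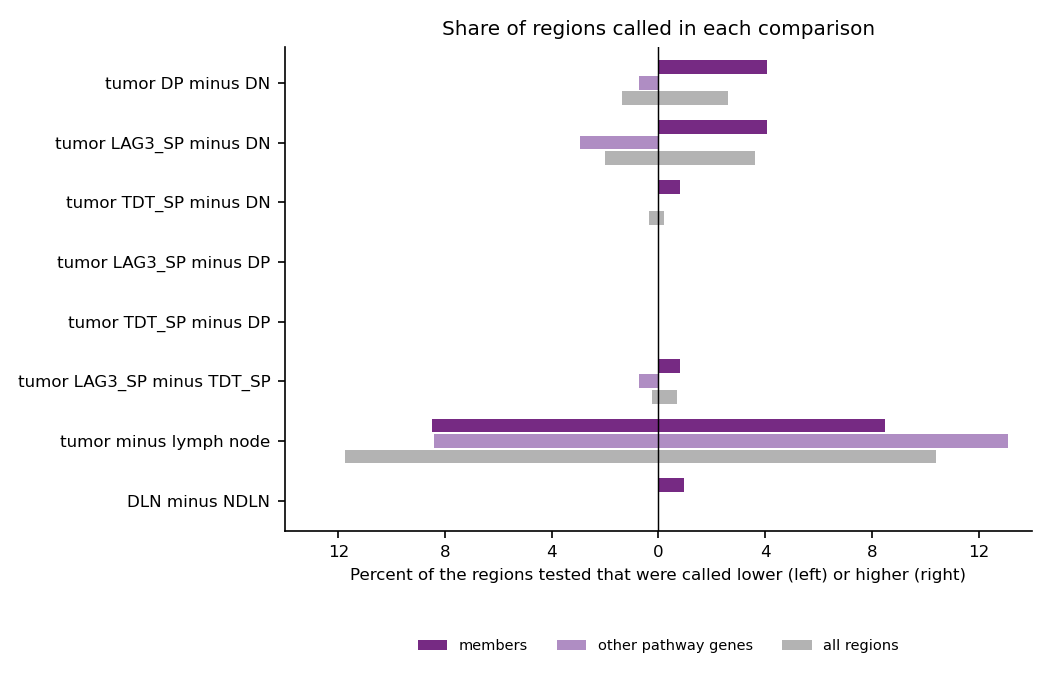
Percent of regions called lower (left of 0) and higher (right of 0) in each of the 8 comparisons, for the member genes, the other pathway genes and all regions. In the tumor comparisons with DN the member bars point only to the right and reach 4.07%, against 2.62% and 3.61% of all regions called higher for DP and LAG3_SP.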

How the data were processed

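Omni-ATAC-seq peak lists of 24 libraries were used, 1 list per library, on GRCm38 (mm10). BWA and MACS2 are named in the submitters' processing notes, and their versions are not stated in the sources used here. Each deposited peak carries a score, a fold ratio over local background, a −log10 p and a −log10 q, which the authors computed within 1 library. Read depth is unknown, so no count test was used.

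Only chromosomes 1 to 19 and X were used, and peaks were ranked by −log10 p among the strongest 19000 (tumor fit) or 14000 (tissue fit) peaks of lists with at least 10000. Regions of 501 bp were placed on summits, strongest first, and kept with peaks in at least 2 libraries. limma 3.58.1 in R 4.3.3 (lmFit, eBayes with trend) tested all regions, with group means in tumor and tissue plus subset in the tissue fit, and Benjamini-Hochberg adjustment at 0.05. A site of the lymph nodes has 1 library per subset, assumed to vary like the others. Differences are in rank value, first group minus second, and SE is that of the difference. The code was tested on simulated shifts. A rank is an order within a list, so it can move when other peaks of the list move.

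Named are each gene's strongest region, every called member region, and of the other pathway genes at most 4 called per comparison; regions named although not called were chosen after their values were seen. The members and lists were chosen with earlier results of these data known. Alternatives were list length, all peaks, fold ranking, presence of a peak, region width and overlap, distance, no trend, 2-group fits, the replicate block and leaving out libraries.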

Additional observations from a re-analysis of the deposited data

Results flagged for a closer look

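Among the regions called between tissues or sites, a library stood far from the rest of its group by Dixon's criterion in 11 of 38 groups of libraries, where chance gives about 1 in 20 for normally distributed values. Rank values stop at 0, so that rate does not apply here, and in 5 of the 11 every other library was at 0. In tumor, LAG3_SP replicate 1 was the lowest at the Pdk1 promoter (0.604, next 0.796) and at Slc38a2 (0.345, next 0.762). TDT_SP replicate 1 was the highest of the tumor libraries at the Pdk1 region 6.44 kb from the gene (0.0397) and at the Ldha region 3.28 kb from the gene (0.0735), TDT_SP replicate 3 at the Slc2a3 region chr6:122801712-122802212 (0.264, next 0.0108), and DN replicate 4 at the Ldha region 8.85 kb away (0.092). In the lymph nodes the NDLN LAG3_SP library, whose list is the shortest of the long ones, was the highest at Epas1 (0.658, all others 0), at the Slc3a2 region chr19:8712729-8713229 (0.537, next 0.0956) and at Ddit4 (0.236). The DLN LAG3_SP library was the highest at Pfkm (0.0498) and the lowest at the Pgk1 promoter (0.83, next 0.934).

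Short lists outside the fits were read for the called tumor regions. The left-out DP replicate 3 had a peak at the Slc38a1 region, at the authors' fold of 5.56, and at the Epas1 region 43.9 kb below the gene, at a fold of 7.33. It had none at the other 3 called tumor regions. The left-out DN replicate 3 had a peak at none of the 5.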

How the results depend on the processing

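No called difference of a member region changed direction. Uncalled differences and those of the other pathway genes were not run under the alternatives. For DP minus DN, LAG3_SP minus DN, TDT_SP minus DN, LAG3_SP minus DP, TDT_SP minus DP, LAG3_SP minus TDT_SP, tumor minus lymph node and DLN minus NDLN the member calls numbered 5, 5, 1, 0, 0, 1, 18 and 1, and the counts that moved follow in that order where they did. With regions within 10 kb only they were 1 and 1 for DP and LAG3_SP against DN, and 0 for TDT_SP minus DN, LAG3_SP minus TDT_SP and DLN minus NDLN. The fit of the 2 groups alone gave 0 for DP, LAG3_SP and TDT_SP against DN and for LAG3_SP minus TDT_SP. All peaks gave 0 in these and in DLN minus NDLN, and 8 for tumor minus lymph node. Over all regions that setting gave 14 for DP minus DN, 12 for LAG3_SP minus DN and 2147 for tumor minus lymph node. Ranking by fold gave 3 and 3 for DP and LAG3_SP against DN, and 0 for TDT_SP minus DN, LAG3_SP minus TDT_SP and DLN minus NDLN. Presence of a peak gave 3 for DP minus DN and for TDT_SP minus DN, 0 for LAG3_SP minus TDT_SP and DLN minus NDLN, and 4 for tumor minus lymph node. The strongest 10000 gave 3 for DP minus DN and 0 for TDT_SP minus DN and DLN minus NDLN. The strongest 4000 with the short lists gave 0 in all tumor comparisons and in DLN minus NDLN, and 10 for tumor minus lymph node. Without a trend TDT_SP minus DP had 1 (254 over all regions) and LAG3_SP minus TDT_SP 5 (746 over all regions). With DN 4, DP 4 and LAG3_SP 3 left out, whose peaks were narrow (chosen after seeing the data), the counts were 10 for LAG3_SP minus DN, 2 for TDT_SP minus DN, 1 for LAG3_SP minus DP and 7 for LAG3_SP minus TDT_SP. Over all regions they were 2758, 618, 146 and 1141, up from 1519, 154, 0 and 255. With TDT_SP 3 left out as well (also chosen after seeing the data) the member counts were 11 for DP minus DN, 14 for LAG3_SP minus DN, 2 for TDT_SP minus DN, 3 for LAG3_SP minus TDT_SP and 11 for tumor minus lymph node. Over all regions they were 2001, 2668, 546, 523 and 3203. The cause was not tested.

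Leaving out each library in turn gave 4 to 7 calls for DP minus DN, 5 to 8 for LAG3_SP minus DN (8 without LAG3_SP replicate 3), 0 to 3 for TDT_SP minus DN (3 without DN replicate 4), 0 to 1 for LAG3_SP minus DP (1 without LAG3_SP replicate 2) and for TDT_SP minus DP (1 without TDT_SP replicate 3), 0 to 3 for LAG3_SP minus TDT_SP (3 without LAG3_SP replicate 3; 0 without DN 1, DN 2, TDT_SP 1 or TDT_SP 2), 11 to 27 for tumor minus lymph node (11 without NDLN DN 1 or tumor TDT_SP 1, 27 without NDLN LAG3_SP 1) and 1 to 3 for DLN minus NDLN (3 without DLN DN 1). Over all regions, DP minus DN had 1079 calls, 14 with all peaks and 21 with just these 2 groups fitted. With each library left out in turn, all-region calls ran from 85 to 586 for TDT_SP minus DN and from 9 to 828 for LAG3_SP minus TDT_SP. They ran from 3460 to 5500 for tumor minus lymph node and from 2 to 84 for DLN minus NDLN.

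Equal replicate numbers did not clearly pair the tumor libraries. Deviations from group means correlated at 0.0271 to 0.268 in same-numbered pairs, all positive, and at −0.251 to 0.333 in others. Of the 12 libraries, 2 correlated best with their own number. The 4 libraries that stood apart account for the highest values, across numbers 3 and 4. With the replicate block the member calls were 0 for TDT_SP minus DN and for LAG3_SP minus TDT_SP. Among the tumor libraries fitted, only LAG3_SP and TDT_SP have number 3 and only DN and DP have number 4. The block thus splits the libraries that stood apart, and it compares these pairs of groups directly only in numbers 1 and 2. No fit blocked on the libraries that stood apart. In the tissue fit every long lymph node list is replicate 1, so a replicate block (chosen after seeing the data) rests the comparison on the 3 tumor libraries of that number. It left 1 member call for tumor minus lymph node, Pfkp (−0.189, adjusted p = 0.037), and 0 for DLN minus NDLN. The lists hold no reads, so a rank of 0 says that no peak was among the strongest, not that the region was closed.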

Other observations

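Among the other pathway genes, tumor and lymph node differed at 23 of 107 regions of 19 genes, 14 higher and 9 lower in tumor (21.5%, against 22.2% of all regions). The promoter region of Taldo1, the transaldolase of the pentose phosphate pathway, had 0.684 to 0.86 in tumor and 0.38 to 0.56 in lymph node, without overlap, a difference of 0.307 (limma adjusted p = 0.000756). Sesn3, a sestrin that restrains mTORC1, ranked lower in tumor 13.6 kb from the gene, with 0 in all tumor libraries and 0 to 0.628 in lymph node, a difference of −0.378 (adjusted p = 0.0025). The promoter region of Pdk3, a relative of Pdk1, had 0 to 0.502 in tumor and 0.462 to 0.773 in lymph node, a difference of −0.346 (adjusted p = 0.00597), opposite in sign to the 0.174 at the Pdk1 promoter. Slc6a6 ranked lower in tumor 66.7 kb away (−0.301, adjusted p = 0.00497) and higher at a region inside the gene (0.312, adjusted p = 0.022).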
